A study of Mus musculus with 10 samples.

Results

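The immediate-early and rapid-response genes Fos, Fosb, Jun, Junb, Jund, Egr1, Ier2, Dusp1, Klf2 and Zfp36 were taken by name, as 10 of the 51717 genes measured in granulocyte-macrophage progenitors (GMPs). All 10 were abundant enough to enter the test between groups, where 12381 genes were tested in all. The GMPs were CD45.2+ donor cells, sorted after enrichment for CD27+ cells from the bone marrow of male C57Bl6/N chimeras, in which donor marrow had been given to irradiated CD45.1 recipients. WT cells carried ROSA26 CreER+/-, and recent Mpc2 KO cells carried Mpc2fl/fl together with ROSA26 CreER+/-. Both groups received tamoxifen chow for 2 wk and were sampled when it ended, so the controls share the Cre allele and the drug. ROSA26 CreER is made in all cell types, and therefore every blood cell derived from the CD45.2+ Mpc2fl/fl donor could lose Mpc2. Mixed chimeras in the paper also received WT CD45.1 marrow, whose cells carry neither allele. There were 5 samples per group. The WT samples came from 1 mouse each, whereas 2 mice were pooled for each KO sample, so the size of a pool and the genotype cannot be told apart.

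Immediate-early genes are transcribed within minutes of a signal, from transcription factors that are already present, and most of their mRNAs are degraded quickly. FOS and JUN family proteins pair to form AP-1, EGR1 is a zinc-finger activator, and DUSP1 and ZFP36 dampen the response by removing phosphate from MAP kinases and by destabilizing AU-rich mRNAs. In blood cells these genes respond to cytokines and adhesion, and they are also known to respond to tissue dissociation, sorting and warming of cells. The data hold no untouched or fixed cells, and how much of any level arose during handling was not tested.

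RefSeq sequence upstream of the transcription start (build GRCm38.p6, 250 bases before to 50 bases after the start) was at hand for 8 of the 10 genes. The starts are those of RefSeq and can differ from the GENCODE M21 gene positions given below. The window of Jund (chr8:70697489-70697788, plus strand) lies wholly upstream of its M21 start at 70698949. Each window was searched on both strands for the letters TGACGTCA, the cyclic AMP response element, and for its core, TGACG, which lies within it. The whole element was found in 1 window, that of Dusp1, and in 1.79% of all 32851 windows of the same length. The core was found in 5 of the 8 windows (Fos, Fosb, Junb, Dusp1 and Klf2) and in 20.8% of all windows. The 4 windows below are shown because they hold the core of the element within 150 bases before the start. They leave out bases that GENCODE M21 places in an exon of the gene, and capitals mark the motifs searched.
Fos, chr12:85473740-85473889, plus strand: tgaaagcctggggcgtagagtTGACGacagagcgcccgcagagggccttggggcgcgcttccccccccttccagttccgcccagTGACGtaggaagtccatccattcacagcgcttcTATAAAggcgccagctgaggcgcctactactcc
Fosb, chr7:19310052-19310195, minus strand: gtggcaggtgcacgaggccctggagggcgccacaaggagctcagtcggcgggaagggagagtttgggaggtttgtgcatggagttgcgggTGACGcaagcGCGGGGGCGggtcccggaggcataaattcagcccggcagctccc
Junb, chr8:84978749-84978898, minus strand: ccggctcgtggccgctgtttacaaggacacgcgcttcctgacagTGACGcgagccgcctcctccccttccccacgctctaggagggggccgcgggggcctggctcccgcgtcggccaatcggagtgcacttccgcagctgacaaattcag
Dusp1, chr17:26508520-26508622, minus strand: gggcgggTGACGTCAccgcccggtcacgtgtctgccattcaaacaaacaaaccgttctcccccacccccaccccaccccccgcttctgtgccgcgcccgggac

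In the Fos window the core of the element began 129 and 66 bases before the start, and a TATAAA box began 33 bases before it. TATAAA was also found in the window of Junb, just after the RefSeq start. That start lies upstream of the M21 start of Junb, chr8:84978718 on the minus strand. TATAAA was present in 13.6% of all windows. The EGR1 letters GCGNGGGCG were found in the windows of Fosb, Klf2 and Zfp36, against 5.55% of all windows. A CArG box, the letters bound by serum response factor, was found in the Zfp36 window and in 1.63% of all windows. The AP-1 letters TGANTCA were in none of the 8 windows and in 7.81% of all. These matches describe letters in short windows, and no binding was measured.

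The series totaled 14033776 to 19745405 estimated reads per sample, and levels are given below as CPM (reads scaled to a common library size after TMM normalization). Mpc2, the deleted gene, ranged from 60.9 to 117 CPM in WT and from 17.1 to 43.9 CPM after deletion. The paper describes a single floxed exon, so these reads per gene can include exons that deletion leaves in place. It fell by 1.46 on the log2 scale (SE 0.24, n = 5 per group) with an adjusted p of 0.0156 by the quasi-likelihood test of edgeR, adjusted by Benjamini and Hochberg's method over the 12381 genes tested. WT replicate 1 and recent KO replicate 2 stood apart by the mean fragment length that Salmon's effective lengths imply. The values were 344 bases against 302 to 304 bases in the other WT samples, and 327 bases against 281 to 288 bases in the other recent KO samples. The share of reads on mitochondrial genes was 1.44% to 1.83% in WT and 1.66% to 2.07% in recent KO. The GMP markers Mpo and Elane were at 51593 to 69039 CPM and 18841 to 29692 CPM in WT, and at 31826 to 52804 CPM and 8375 to 21138 CPM in recent KO.

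Deletion of Mpc2 was accompanied by a called difference (adjusted p under 0.05, edgeR) in 0 of the 10 genes, and the ranges of WT and recent KO overlapped in all 10. By the same test 0.331% of all tested genes were called, and 2.43% of them had ranges with no overlap. At an unadjusted p under 0.05 the count was again 0 of 10, beside 10.2% of all tested genes, and it was 0 of 10 by DESeq2 and 0 of 8 by limma on log2(TPM + 1) at an adjusted p under 0.05. Fitted values were below WT for 8 genes and above it for 2, with a median of -0.19 on the log2 scale against -0.0018 over all genes tested. The 95% interval of the difference lay within 2-fold in either direction for 7 genes and within 1.5-fold for 2, Junb and Ier2. For Fosb, Egr1 and Klf2 a 2-fold difference remained inside the interval. The labels call the samples biological replicates, and the p-values measure the spread between these samples.

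**Figure D1:**
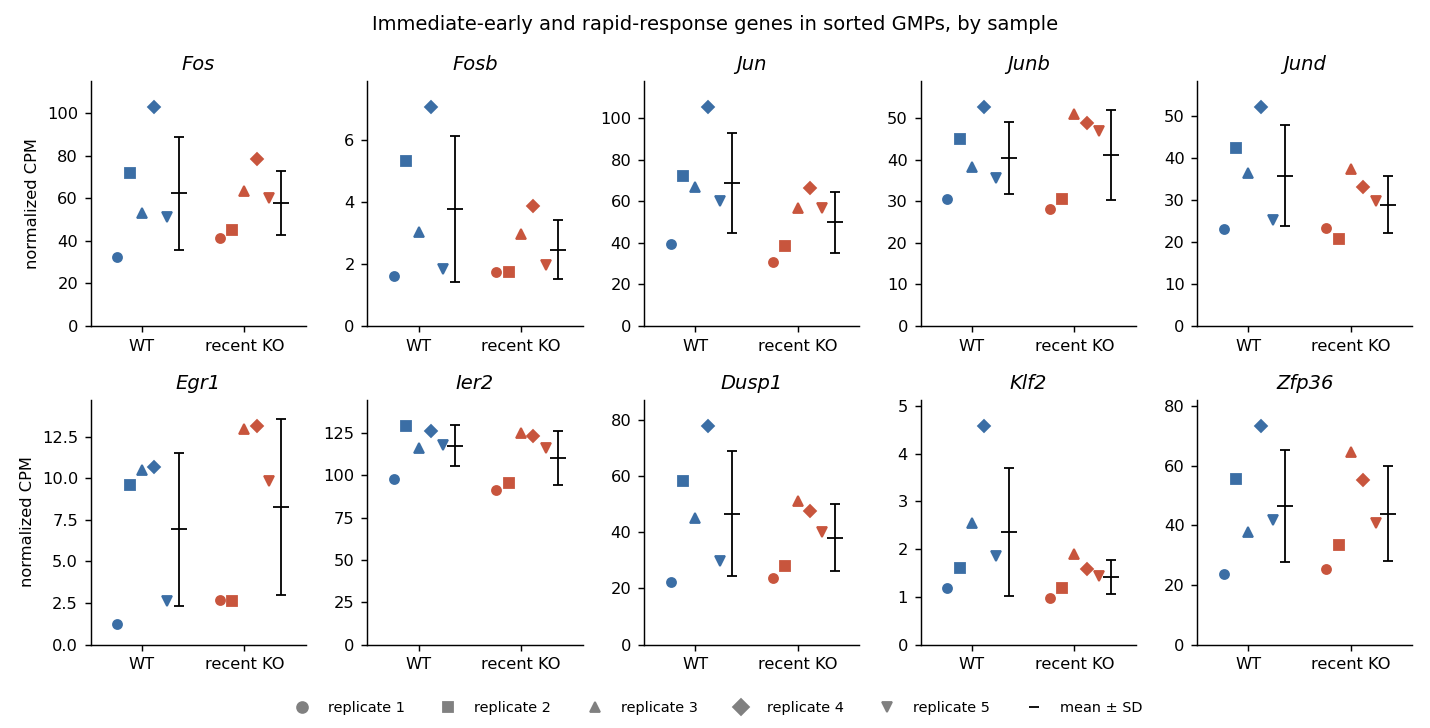
Normalized CPM (vertical axis, from 0) of each gene in the 5 WT samples (blue) and 5 recent Mpc2 KO samples (red), with the replicate number as marker shape and the mean ± SD in black. In every panel WT replicate 1 is the lowest WT sample, recent KO replicates 1 and 2 are the lowest of their group, and the groups overlap.

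Fos encodes the FOS subunit of AP-1 (ENSMUSG00000021250, chr12:85473890-85477273 on GRCm38, plus strand). In WT replicates 1 to 5 it was at 32.6, 72.2, 53.2, 103 and 51.5 CPM. Recent KO replicates 1 to 5 were at 41.5, 45.1, 63.4, 78.7 and 60.5 CPM. The highest and the lowest of the 10 values were both WT samples, and the KO samples lay between them. The means were 62.5 ± 26.6 CPM in WT against 57.8 ± 15.0 CPM in recent KO (SD, n = 5 each). Its log2 fold change was -0.10 (95% interval -0.65 to 0.44, adjusted p = 0.931 by edgeR), and without WT replicate 4, the highest sample, it was 0.15.

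Fosb, a FOS paralog that also dimerizes with JUN proteins (ENSMUSG00000003545, chr7:19302696-19310051, minus strand), was low, with 25 to 96 estimated reads per sample. It ranged from 1.62 to 7.07 CPM in WT, with a median of 3.03 CPM. In recent KO it ranged from 1.75 to 3.90 CPM, with a median of 1.96 CPM. Only WT replicates 2 and 4 exceeded every KO sample. Recent KO over WT gave a log2 fold change of -0.59 (95% interval -1.43 to 0.26, adjusted p = 0.666 by edgeR).

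Jun encodes the AP-1 subunit that can also act as a homodimer (ENSMUSG00000052684, chr4:95049034-95052222, minus strand). In WT replicates 1 to 5 it was at 39.4, 72.1, 66.8, 105 and 60.2 CPM. In recent KO replicates 1 to 5 it was at 30.7, 38.6, 56.9, 66.5 and 56.7 CPM. Apart from WT replicate 1, every WT sample was above 4 of the 5 KO samples, and WT replicate 3 exceeded the highest KO sample by less than 1 CPM. On the log2 scale the fold change was -0.46 (95% interval -0.97 to 0.05, unadjusted p = 0.0747, adjusted p = 0.537 by edgeR), and the exact two-sided permutation p over samples was 0.143.

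Junb restrains proliferation of myeloid progenitors in mice, as is known from its deletion (ENSMUSG00000052837, chr8:84974484-84978718, minus strand). In WT replicates 1 to 5 it was at 30.5, 45.03, 38.3, 52.6 and 35.6 CPM. Recent KO replicates 1 to 5 were at 28.1, 30.6, 51.1, 48.9 and 46.8 CPM. The KO samples fell into a lower pair and an upper trio that spanned nearly the same range as WT. The log2 fold change was 0.03 (95% interval -0.36 to 0.42, adjusted p = 0.972 by edgeR), and the sign differed when WT replicate 1 or 5 or recent KO replicate 3, 4 or 5 was left out. Junb overlaps Prdx2 on the opposite strand, which was at a mean of 345 CPM in WT against 378 CPM in recent KO. The sources used here do not state strand, so reads from the overlapping bases cannot be assigned.

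Jund is the JUN family member that cells express most steadily (ENSMUSG00000071076, chr8:70698949-70700616, plus strand). It ranged from 23.1 to 52.2 CPM in WT and from 20.8 to 37.3 CPM in recent KO. WT replicates 2 and 4 were above all KO samples, and WT replicates 1 and 5 lay near the lowest of them. Its log2 fold change was -0.30 (95% interval -0.76 to 0.16, adjusted p = 0.694 by edgeR).

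Egr1, a zinc-finger transcription factor induced through MAP kinases and serum response factor (ENSMUSG00000038418, chr18:34859823-34864984, plus strand), had the widest range relative to its level. In WT replicates 1 to 5 it was at 1.22, 9.59, 10.5, 10.6 and 2.63 CPM. In recent KO replicates 1 to 5 it was at 2.67, 2.59, 12.95, 13.2 and 9.84 CPM. Both groups held samples of both kinds, since 4 samples were at or below 2.67 CPM and 6 at or above 9.59 CPM, with none between. The means were 6.92 ± 4.60 CPM in WT against 8.24 ± 5.29 CPM in recent KO (SD, n = 5 each). Recent KO over WT gave a log2 fold change of 0.28 (95% interval -0.91 to 1.48, adjusted p = 0.910 by edgeR).

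Ier2, a small nuclear protein of the early growth response (ENSMUSG00000053560, chr8:84661331-84662852, minus strand), was the most abundant and least variable of the 10 genes. In WT replicates 1 to 5 it was at 98.0, 129, 116, 126 and 118 CPM. Recent KO replicates 1 to 5 were at 91.1, 95.1, 125, 123 and 116 CPM. Again 3 samples (WT replicate 1 and recent KO replicates 1 and 2) sat below the other 7. On the log2 scale the fold change was -0.09 (95% interval -0.31 to 0.12, adjusted p = 0.832 by edgeR). That interval runs from 0.808-fold to 1.09-fold of WT.

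Dusp1, the phosphatase that inactivates MAP kinases (ENSMUSG00000024190, chr17:26505590-26562128, minus strand), was at 22.2, 58.5, 45.01, 78.0 and 29.8 CPM in WT replicates 1 to 5. In recent KO replicates 1 to 5 it was at 23.6, 28.1, 51.3, 47.6 and 40.3 CPM. WT replicates 2 and 4 were above every KO sample, and WT replicate 1 was below every KO sample. The log2 fold change was -0.28 (95% interval -0.92 to 0.36, adjusted p = 0.825 by edgeR). Dusp1 overlaps Ergic1 on the opposite strand, at a mean of 96.2 CPM in WT against 102 CPM in recent KO.

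Klf2, a zinc-finger factor linked to quiescence and trafficking of leukocytes (ENSMUSG00000055148, chr8:72319033-72321656, plus strand), was the least abundant by reads, with 14 to 59 per sample. In WT replicates 1 to 5 it was at 1.17, 1.61, 2.55, 4.59 and 1.86 CPM, and in recent KO replicates 1 to 5 at 0.984, 1.19, 1.91, 1.58 and 1.44 CPM. WT replicates 3 and 4 were above every KO sample, and the others overlapped them. Its log2 fold change was -0.69 (95% interval -1.44 to 0.06, unadjusted p = 0.0694, adjusted p = 0.529 by edgeR), and the exact two-sided permutation p was 0.143.

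Zfp36, which binds AU-rich mRNAs and speeds their decay (ENSMUSG00000044786, chr7:28376784-28380253, minus strand), was at 23.6, 55.6, 37.9, 73.4 and 41.6 CPM in WT replicates 1 to 5. Recent KO replicates 1 to 5 were at 25.4, 33.5, 64.7, 55.0 and 40.8 CPM. Only WT replicate 4 lay above all KO samples, and WT replicate 1 lay below them. Recent KO over WT gave a log2 fold change of -0.07 (95% interval -0.68 to 0.53, adjusted p = 0.957 by edgeR), with a sign that depended on the scaling (0.02 when library size alone was used).

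**Figure D2:**
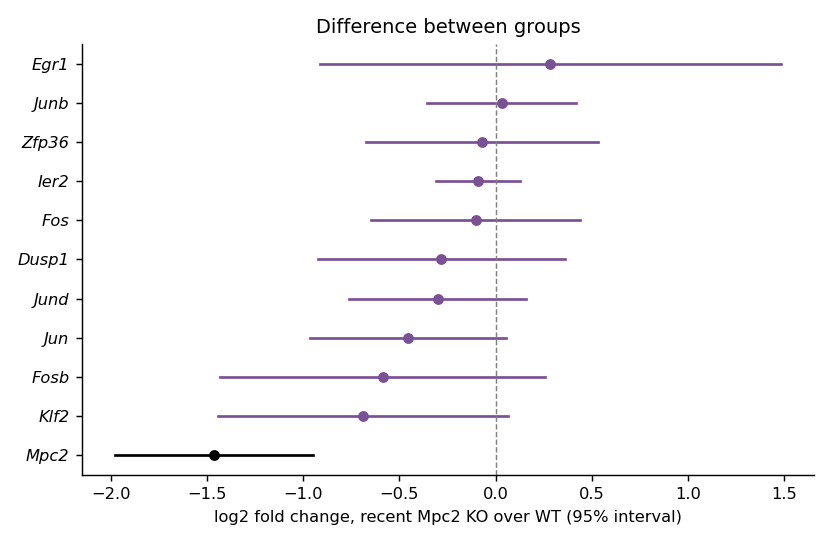
Log2 fold change of recent Mpc2 KO over WT (horizontal axis) with its 95% interval from edgeR for the 10 genes (purple) and for Mpc2 (black). The intervals of all 10 genes include 0, while that of Mpc2 runs from -1.98 to -0.95.

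Exact two-sided permutation tests on the CPM of each gene gave p values from 0.143 to 0.929 over the 10 genes, where 5 samples against 5 allow none below 0.00794. In the fit across all genes the lowest adjusted p of any of the genes was 0.262 over all alternatives, and it belonged to Jun. Single samples weighed on the fitted values. Without WT replicate 4 the log2 fold change was -0.32 for Klf2, -0.25 for Fosb, -0.25 for Jun, -0.13 for Jund and -0.02 for Dusp1, each nearer to 0 than with all samples. Egr1 was at 0.0040 without WT replicate 1, 0.08 without WT replicate 5, and 0.06 when recent KO replicate 3 or 4 was left out. Without both libraries of long fragments, an alternative chosen after seeing the data, the log2 fold changes kept their signs and 0 of 10 were called.

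Levels were compared between genes per length, as TPM, which divides reads by transcript length. Ier2 was highest in both groups, at 72.6 ± 5.73 TPM in WT and 71.4 ± 12.2 TPM in recent KO (SD, n = 5 each), and its samples overlapped no other member. In WT it was followed by Fos (26.8 ± 9.18 TPM), Dusp1 (22.6 ± 10.2 TPM), Junb (20.5 ± 3.31 TPM), Jund (19.6 ± 5.64 TPM), Jun (17.7 ± 5.34 TPM) and Zfp36 (15.2 ± 5.64 TPM), and each neighbor in this order overlapped the next. The order in recent KO was Fos, Junb, Dusp1, Jund, Zfp36 and Jun, from 26.0 ± 7.23 down to 13.8 ± 4.41 TPM, again with each overlapping the next. Egr1, Klf2 and Fosb were lowest in both groups, at 1.25 ± 0.819, 1.13 ± 0.581 and 0.857 ± 0.504 TPM in WT and 1.74 ± 1.07, 0.733 ± 0.201 and 0.597 ± 0.244 TPM in recent KO. Among all tested genes Ier2 was at percentile 87.7 of mean TPM in WT and Fos at percentile 77.0, while Fosb was at percentile 17.3.

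The samples within a group differed more in most of these genes than in a typical tested gene. The within-group SD of log2(CPM + 0.5) had a median of 0.610 over the 10 genes in WT and 0.418 in recent KO, beside medians of 0.168 and 0.185 over all genes tested. Egr1 had the widest spread, with an SD of 1.25 in WT (percentile 99.6 of all tested genes) and 1.10 in recent KO (percentile 99.4). In WT its highest sample was 8.70 times its lowest, and in recent KO 5.08 times. Fosb, Dusp1, Fos, Klf2, Zfp36, Jun and Jund had WT spreads between percentiles 93.5 and 98.7. These percentiles do not allow for the number of reads. Counting alone gives an SD of about 0.259 for Klf2 and 0.201 for Fosb. The SD of Klf2 was 0.613 in WT and 0.269 in recent KO, and that of Fosb 0.802 and 0.433. Ier2 had a spread near that of a typical gene, at percentile 45.5 in WT and 58.4 in recent KO, and its highest WT sample was 1.32 times its lowest. The SD was larger in WT than in recent KO for 8 of the 10 genes, Junb and Ier2 being the exceptions, whereas WT had the larger SD in 43.0% of all genes tested. On the scale log2(TPM + 1) the order of the medians turned, with 0.406 in WT and 0.422 in recent KO. The spreads were not tested against each other, because genes are not replicates. Each KO sample pooled 2 mice and each WT sample came from 1, so pool size and genotype cannot be told apart in these spreads. Without WT replicate 1 the median over the genes in WT was 0.448, and without WT replicate 4 it was 0.440.

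**Figure D3:**
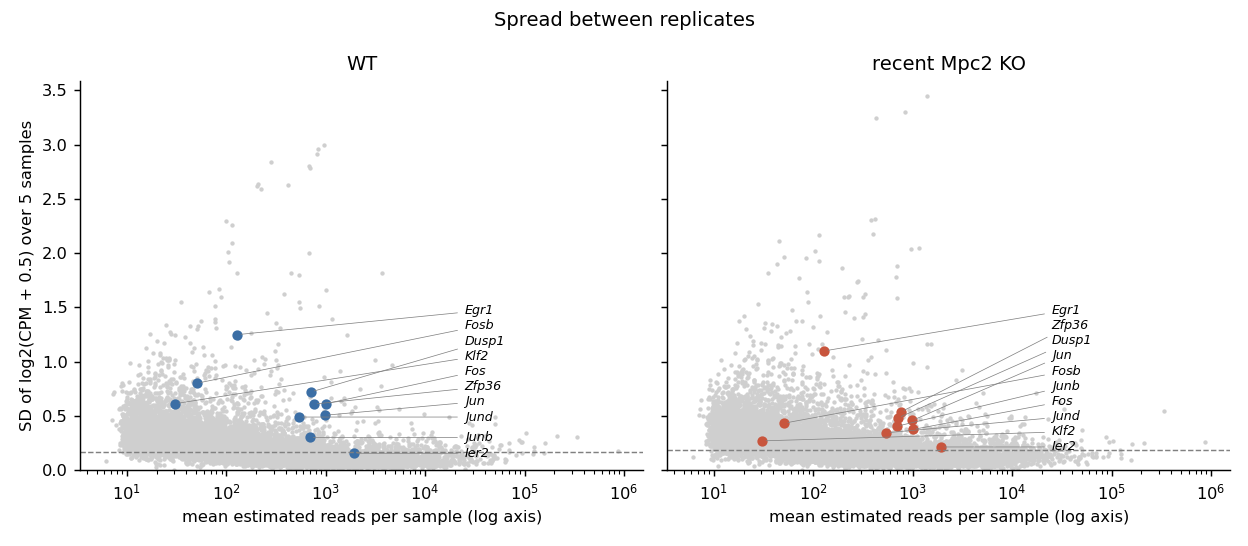
SD of log2(CPM + 0.5) over the 5 samples of a group (vertical axis) against mean estimated reads per sample (horizontal log axis) for all 12381 tested genes (grey) and the 10 immediate-early and rapid-response genes (colored, joined by thin lines to their names). The dashed lines are the medians of all tested genes, 0.168 in WT and 0.185 in recent KO, and 9 of the 10 genes lie above it in WT.

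The genes were high or low in the same samples. WT replicate 1 was the lowest WT sample for 10 of 10 genes, a pattern shared by 24.0% of all tested genes, and WT replicate 4 was the highest for 9 of 10, against 23.5% of tested genes. Recent KO replicates 1 and 2 were the lowest of their group for 10 of 10 genes, against 16.8% of tested genes. Averaged over the genes, the deviations from the group mean of log2(CPM + 0.5) were -0.78, 0.30, 0.08, 0.71 and -0.32 for WT replicates 1 to 5. For recent KO replicates 1 to 5 they were -0.53, -0.40, 0.40, 0.41 and 0.12. WT replicate 1 and recent KO replicate 2, the libraries of long fragments, were both low. Recent KO replicate 1, with the shortest fragments of the 10 libraries (281 bases), was low as well. The part of fragment length in this pattern was not tested.

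Correlations were computed after the group mean was subtracted, so that a difference between genotypes could not drive them, for the 28 pairs of 8 genes. Egr1 and Ier2 were left out because their samples fell into separate ranges, with a gap over 40% of the whole range. Pearson's r ranged from 0.71 to 0.97 with a median of 0.90, and Spearman's rho from 0.65 to 0.98 (n = 10 samples). By exact permutation within groups, 27 of the 28 pairs had an adjusted p under 0.05 for r, and 27 for rho, after Benjamini-Hochberg adjustment over the 28. Among all 76638390 pairs of tested genes the median r was -0.001, and 0.111% reached 0.9. The tightest pair was Jund with Dusp1 (r = 0.97, exact permutation p = 0.000278, adjusted p = 0.00111, and rho = 0.94, exact permutation p = 0.00132, adjusted p = 0.00264). Fos and Jun, which pair in AP-1, followed with r = 0.96 and rho = 0.96 (adjusted p = 0.000972 for each by exact permutation). Klf2 was in the 4 weakest pairs, and with Fosb it missed the threshold (r = 0.71, exact permutation p = 0.0587, adjusted p = 0.0587, and rho = 0.65, exact permutation p = 0.0993, adjusted p = 0.0993).

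When the 2 samples farthest from the median of the first gene were left out of each pair, r ranged from 0.42 to 0.98 with a median of 0.86, and exceeded 0.5 in 27 of 28 pairs. The exception was Fos with Klf2, whose r of 0.81 (exact permutation p = 0.0190, adjusted p = 0.0197) went to 0.42 without WT replicates 1 and 4, so this relation rests on those samples. Without both libraries of long fragments the median r was 0.88, the lowest was 0.59, and 21 of 28 pairs had an adjusted p under 0.05 by exact permutation of the remaining 8 samples. Averaged over the 10 genes, the deviations had an r of -0.59 with fragment length but a rho of 0.006, an r of 0.50 with the mitochondrial share and an r of -0.02 with the number of reads, each over 10 samples and given as a description. The part of these library properties in the shared variation was not tested.

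**Figure D4:**
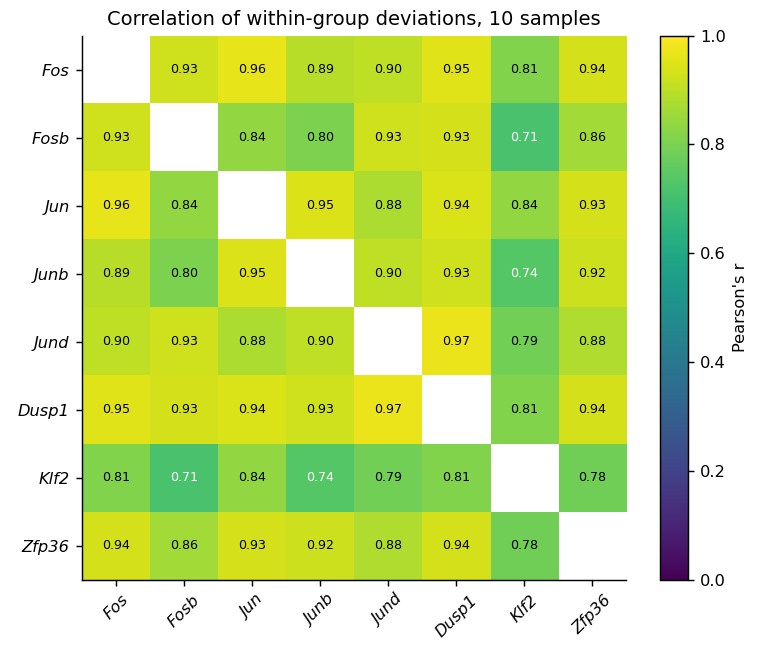
Pearson's r between the within-group deviations of log2(CPM + 0.5) over 10 samples, for each pair of the 8 genes whose samples did not fall into separate ranges (rows and columns, color scale from 0 to 1). All values lie between 0.71 and 0.97, and Klf2 is in the 4 lowest.

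Salmon's split of reads between transcripts was examined for the 27 annotated transcripts of the 10 genes. Jun, Jund, Ier2 and Klf2 each have 1 transcript, and that of the first 3 is a single exon, so spliced and unspliced RNA cannot be told apart there. Of 11 transcripts with at least 10 reads on average in genes with more than 1 transcript, 0 differed in share between the groups (lowest adjusted p = 0.480 by exact permutation test). The retained-intron models of Dusp1 took 16.0% to 24.9% of its reads in WT and 12.8% to 26.7% in recent KO. The retained-intron model of Fosb, averaging 17.7 reads per sample, took 18.3% to 42.4% in WT and 29.6% to 61.3% in recent KO. The model of Zfp36 that runs through its intron as 1 exon took 54.6% to 64.4% in WT and 52.7% to 66.8% in recent KO. Reads moved between the coding transcripts of Fosb from sample to sample (0% to 81.7% on Fosb-207 in WT). No coding isoform of Fosb is therefore reported. Egr1-201 took 78.3% to 100% of Egr1 reads in WT and 57.9% to 100% in recent KO, the rest being on Egr1-202 (adjusted p = 0.480 by exact permutation test).

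The other genes of the response were read from lists drawn up by function, in which edgeR called 0 genes. Beside the counts here and in the lists that follow, edgeR called 0.331% of all tested genes. An unadjusted p under 0.05 by edgeR was reached by 10.2% of all tested genes. For the remaining AP-1 subunits and bZIP partners, 9 of 13 were tested and 0 were called by edgeR, with 0 at an unadjusted p under 0.05 and 0 by DESeq2. Their median log2 fold change was -0.04. Mafg, a small MAF protein, had the smallest p among them, at 47.1 ± 3.35 CPM in WT against 42.1 ± 4.07 CPM in recent KO (log2 fold change -0.16, adjusted p = 0.514 by edgeR). Maff was at 3.02 ± 0.368 and 2.26 ± 0.957 CPM (adjusted p = 0.617 by edgeR), and Jdp2 at 20.1 ± 1.496 and 18.2 ± 2.498 CPM (adjusted p = 0.672 by edgeR). These genes did not share the sample pattern, since the correlation with the mean deviation of the 10 genes was positive for 3 of 9 and had a median of -0.37, beside 0.01 over all tested genes. Atf3, a stress-induced bZIP gene, was at 0.544 CPM or less in every sample and was not tested.

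Among the other immediate-early transcription regulators, 12 of 18 were tested, and 0 were called by edgeR or DESeq2. By edgeR 5 of the 12 had an unadjusted p under 0.05, 1 of them higher in recent KO, beside 10.2% of all tested genes. Myc was at 254 ± 19.3 CPM in WT against 292 ± 24.1 CPM in recent KO (log2 fold change 0.20, adjusted p = 0.328 by edgeR). Klf6 was at 15.4 ± 2.98 and 11.8 ± 1.66 CPM (log2 fold change -0.37, adjusted p = 0.366 by edgeR), and Cebpd, a C/EBP family factor, at 45.7 ± 7.88 and 36.6 ± 5.08 CPM (log2 fold change -0.32, adjusted p = 0.374 by edgeR). Egr2, Egr4, Nr4a1 and Nr4a3 were below 0.7 CPM in every sample, and Egr3 had no reads in any. For 9 of the 12 tested genes the correlation with the mean deviation of the 10 genes was positive, with a median of 0.50. It was at least 0.7 for 2 of them, against 4.79% of all tested genes.

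Of 27 feedback and mRNA-decay genes, 23 were tested, 0 were called by edgeR and 3 had an unadjusted p under 0.05. DESeq2 called 2 of them, Gadd45b and Per1. Per1, a circadian regulator that glucocorticoids and cyclic AMP induce, was at 2.04 ± 0.658 CPM in WT against 3.86 ± 0.892 CPM in recent KO (log2 fold change 0.94, adjusted p = 0.183 by edgeR). Gadd45b, a stress-response gene, was at 36.6 ± 8.32 and 24.6 ± 4.74 CPM (log2 fold change -0.58, adjusted p = 0.186 by edgeR), and Zfp36l2, a paralog of Zfp36, at 57.0 ± 10.3 and 76.9 ± 11.04 CPM (log2 fold change 0.43, adjusted p = 0.215 by edgeR). The correlation with the mean deviation of the 10 genes was positive for 17 of 23 and at least 0.7 for 9, against 4.79% of all tested genes at 0.7 or above.

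Of 14 heat-shock genes, 13 were tested, 0 were called by edgeR, 2 had an unadjusted p under 0.05 and 0 were called by DESeq2. Hspa1b, an inducible HSP70, was at 4.70, 28.0, 60.3, 144 and 57.8 CPM in WT replicates 1 to 5 and at 5.98, 3.50, 6.402, 19.0 and 23.04 CPM in recent KO replicates 1 to 5. WT replicate 1 lay among the KO samples, and the other 4 WT samples were above all of them. Its log2 fold change was -2.32 (SE 0.68, adjusted p = 0.225 by edgeR), and Hspa1a, a near-identical neighbor with which reads may be exchanged, gave -2.12 (SE 0.71, adjusted p = 0.302 by edgeR). Hsf1, the heat-shock transcription factor, was at 38.1 ± 2.87 CPM in WT against 34.8 ± 5.38 CPM in recent KO (adjusted p = 0.741 by edgeR). All 13 tested heat-shock genes correlated positively with the mean deviation of the 10 genes, with a median r of 0.67. Hspa8, the constitutive HSP70, was named after its values were seen (r = 0.93), and it ran at 2122, 2846, 3423, 4424 and 2381 CPM in WT replicates 1 to 5 and at 2235, 2080, 3597, 3266 and 3366 CPM in recent KO replicates 1 to 5.

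The MAP kinases, serum response factor and their partners, which act upstream of the 10 genes, did not share the sample pattern as a list. All 29 were tested, 0 were called by edgeR, 2 had an unadjusted p under 0.05 and 0 were called by DESeq2, and the median r with the mean deviation was 0.01. Srf was at 15.4 ± 1.90 CPM in WT against 12.8 ± 1.01 CPM in recent KO (log2 fold change -0.26, adjusted p = 0.401 by edgeR). Rps6ka1, a kinase below ERK, was at 172 ± 14.8 and 152 ± 17.4 CPM (adjusted p = 0.463 by edgeR), and Mrtfa, an actin-sensing SRF cofactor, at 11.2 ± 1.57 and 9.32 ± 1.55 CPM (adjusted p = 0.541 by edgeR).

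Of 15 mRNAs known to be bound by ZFP36, 9 were tested, among them Fos, Dusp1 and Zfp36 itself. By edgeR 0 were called, 1 had an unadjusted p under 0.05, and by DESeq2 0 were called. Ccl4, a chemokine, was at 2.30 ± 0.391 CPM in WT against 3.34 ± 1.05 CPM in recent KO (adjusted p = 0.447 by edgeR), Plk3 at 1.25 ± 0.440 and 1.85 ± 0.315 CPM (adjusted p = 0.503 by edgeR), and Ier3 at 17.7 ± 3.61 and 21.6 ± 7.97 CPM (adjusted p = 0.707 by edgeR). Ccl3, another chemokine of this list, was named after its values were seen, and it was at 1.86, 7.15, 6.83, 7.77 and 5.87 CPM in WT replicates 1 to 5 and at 3.66, 2.80, 7.67, 8.04 and 7.37 CPM in recent KO replicates 1 to 5. Its low samples were thus WT replicate 1 and recent KO replicates 1 and 2, as for the 10 genes. Of 6 genes known to depend on KLF2, 4 were tested and 0 were called by edgeR or DESeq2, with 1 at an unadjusted p under 0.05. Itgb7 was at 6.94 ± 1.05 CPM in WT against 9.87 ± 3.23 CPM in recent KO (adjusted p = 0.387 by edgeR), Thbd at 3.67 ± 0.843 and 2.61 ± 1.03 CPM (adjusted p = 0.548 by edgeR), and Cd69 at 45.5 ± 8.83 and 38.7 ± 4.74 CPM (adjusted p = 0.551 by edgeR).

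Outside the 10 genes, the tested genes averaging 50 or more reads whose deviations were most like the mean of the 10 genes were Dgka, Btg2, Hist1h3d, Gm43362, 5031425E22Rik, Tra2b, Ugcg, Neat1, Slc38a2 and Ppp1r15a. Their r lay between 0.93 and 0.97 over 10 samples, and between 0.87 and 0.98 without WT replicate 1 and recent KO replicate 1. Btg2 was at 13.6, 27.3, 21.6, 35.8 and 19.0 CPM in WT replicates 1 to 5 and at 10.2, 11.05, 19.3, 20.8 and 21.1 CPM in recent KO replicates 1 to 5. Neat1 was at 34.5, 123, 81.9, 126 and 50.7 CPM in WT replicates 1 to 5 and at 30.8, 33.9, 67.5, 55.1 and 72.0 CPM in recent KO replicates 1 to 5. Tra2b, a splicing factor, was also lowest in WT replicate 1 and highest in WT replicate 4, within a narrow range of 316 to 391 CPM in WT and 331 to 401 CPM in recent KO. Of these 10, 0 were called between groups and 0 had an unadjusted p under 0.05, with adjusted p from 0.513 to 0.996 by edgeR. Since these genes were picked for this likeness, their r describes the choice.

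Mpc2 itself, also picked after its values were seen, was at 61.0, 111, 95.2, 117 and 60.9 CPM in WT replicates 1 to 5 and at 27.7, 17.1, 43.9, 37.0 and 34.997 CPM in recent KO replicates 1 to 5. After the group means were subtracted its r with the mean deviation of the 10 genes was 0.86 and its rho was 0.84 (n = 10, a description). The samples with most Mpc2 reads in each group were thus also those high in immediate-early genes. In recent KO these reads can include exons that deletion leaves in place.

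**Figure D5:**
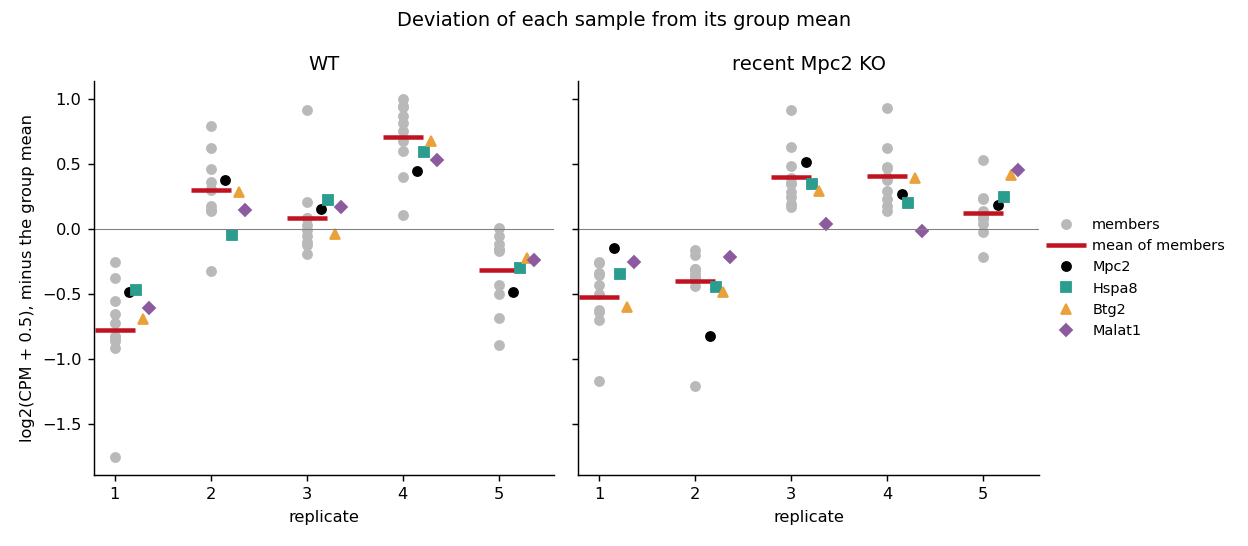
Deviation of each sample from its group mean on the scale log2(CPM + 0.5) (vertical axis) by replicate number (horizontal axis) for the 10 genes (grey), their mean (red bar), and Mpc2, Hspa8, Btg2 and Malat1 (colored markers). The mean of the 10 genes is at -0.78 in WT replicate 1, 0.71 in WT replicate 4, -0.53 and -0.40 in recent KO replicates 1 and 2, and the other genes mostly lie on the same side of 0.

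Genes used as signs of RNA quality were set beside these values. All 11 were tested, 0 were called by edgeR, 2 had an unadjusted p under 0.05, and Malat1 was called by DESeq2 and by limma. Malat1, a nuclear RNA, was at 554 ± 161 CPM in WT against 308 ± 64.4 CPM in recent KO (log2 fold change -0.85, adjusted p = 0.0850 by edgeR), and its r with the mean deviation of the 10 genes was 0.85. The mitochondrial transcript mt-Nd1 was at 979 ± 97.1 and 1208 ± 127 CPM (log2 fold change 0.30, adjusted p = 0.226 by edgeR), with an r of 0.23. Among the mitochondrial transcripts of this list r ran from -0.15 for mt-Co1 to 0.845 for mt-Cytb. Neat1, also picked above for its likeness, had an r of 0.94 (adjusted p = 0.513 between groups by edgeR). Over the 11 genes r was positive for 10 and at least 0.7 for 4, with a median of 0.56. Over all tested genes the median was 0.01, and 4.79% reached 0.7. The part of nuclear RNA and of RNA quality in the shared variation was not tested.

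Markers of other cell types were also read beside the 10 genes, from 12 lists. For comparison, edgeR called 0.331% of all tested genes, and 10.2% had an unadjusted p under 0.05. Of 10 macrophage markers, 3 rose in recent KO (C1qa, C1qb and C1qc, all subunits of complement C1q, with adjusted p of 0.0406, 0.0160 and 0.0383 by edgeR), and the summed level of the list was 23.9 to 47.5 CPM in WT and 48.4 to 92.1 CPM in recent KO. DESeq2 called 5 of the 10, with Hmox1 and Cd5l besides, and limma called 1 of the 7 that passed its filter. The r of the sum with the mean deviation was 0.01. The other 11 lists had 0 called by edgeR, with up to 10 genes of a list at an unadjusted p under 0.05 and at most 2 called by DESeq2. The megakaryocyte sum was 8.70 to 17.1 CPM in WT and 21.4 to 29.7 CPM in recent KO. All 3 tested genes of that list were higher at an unadjusted p under 0.05, and DESeq2 called Pf4. All 7 stem and multipotent markers had higher values in recent KO, and DESeq2 called Flt3. All 4 tested monocyte markers had lower values, and DESeq2 called Cx3cr1. Of 14 GMP markers, 10 had an unadjusted p under 0.05 and lower values in recent KO, DESeq2 called Mpo and Fcgr3, and the r of their sum was 0.03. Of 7 erythroid markers 4 were tested, all with higher values in recent KO and 3 at an unadjusted p under 0.05. The sum of this list was 6.17 to 24.9 CPM in WT and 13.4 to 126 CPM in recent KO, and its r with the mean deviation was 0.76. The 12 values of this r ran from -0.82, for the B cell list of which 1 of 6 genes (Cd79b) was tested, to this one. Of 10 mature neutrophil markers 9 were tested, of which 7 had higher values in recent KO, 6 of them at an unadjusted p under 0.05, and 0 were called by edgeR or DESeq2 (median 1.40 on the log2 scale). The list had a sum of 123 to 435 CPM in WT and 118 to 754 CPM in recent KO and an r of 0.04. Ace of the monocyte list and Cdh5 of the endothelial list were at 0 in every sample. In these sorted pools fewer cells of a type and less RNA per cell cannot be told apart, and the part of other cells in the spread of the 10 genes was not tested.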

How the data were processed

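RNA from sorted GMPs was amplified as SMARTseq V4 cDNA and sequenced on a NovaSeq instrument as paired-end reads, with no molecular identifiers. The authors quantified transcripts with Salmon 1.5.1 (version from the submitters' processing notes) against Gencode M27 and deposited, per sample, estimated counts and TPM for each transcript. The deposited comparison table from DESeq2 (fold changes, standard errors and p-values) was not used.

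Both quantities were summed per gene through GENCODE M21 (GRCm38), which matched 137161 of 140789 transcripts (97.4%), and the unmatched ones held 0.348% to 0.390% of reads. Gene positions are those of M21. Sequences came from RefSeq. Estimated counts were rounded. Genes passing edgeR's filterByExpr (minimum count 10) were fitted with the quasi-likelihood test of edgeR 4.0.16 in R 4.3.3 after TMM normalization, with 5 samples per group and no covariate. Depth was 14033776 to 19745405 reads, and amplified reads are not independent molecules, so counting errors are a lower limit. Spread and correlation used log2(CPM + 0.5), with exact permutation within groups (14400 arrangements) and Benjamini-Hochberg adjustment over pairs. Scripts were tested on simulated data. Alternatives used other scaling and filters, DESeq2 1.42.0, limma 3.58.1 on log2(TPM + 1), a transcript length offset, a replicate block and each sample left out.

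Members and lists were chosen with earlier results of these data known. From each pathway list the 3 genes with the smallest p were named, besides any with an adjusted p under 0.05, and the 10 genes averaging 50 or more reads that correlated best with the mean deviation. Other genes are said to be named after their values were seen. Samples with the same replicate number did not deviate together (correlations from -0.18 to 0.05), so the numbers were not taken as pairs.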

Additional observations from a re-analysis of the deposited data

Results flagged for a closer look

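Of 88 groups of 5 samples (44 genes in WT and in recent KO), 2 held a sample whose gap to the nearest other sample was large against the whole range by Dixon's 95% limit, where chance gives about 1 in 20, or 4.4. Klf6 was lowest in recent KO replicate 1 at 8.93 CPM, with the other KO samples at 12.2 to 13.03 CPM. Gadd45b was highest in WT replicate 4 at 50.9 CPM, with the other WT samples at 30.7 to 36.3 CPM. Neither is among the 10 genes.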

How the results depend on the processing

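In all 22 alternatives 0 of the genes tested among the 10 were called. Of 215 log2 fold changes under alternatives, 202 kept their sign and 13 did not, for Zfp36, Junb and Fos. Zfp36 was at 0.024 with library size only, and by limma at 0.0063 with a TPM pseudocount of 1 and at 0.0061 with one of 0.1. With each sample left out in turn it ran from -0.26 to 0.15, Junb from -0.060 to 0.14 and Fos from -0.27 to 0.15. The cause was not tested. Among all genes, 41 were called, against 206 with no filter on low counts, 156 by DESeq2, 25 and 24 by limma with the larger and the smaller pseudocount, 71 without the libraries of long fragments (chosen after seeing the data), and 25 to 91 with each sample left out in turn (91 without recent KO replicate 2, 25 without recent KO replicate 3 or 4, 26 without WT replicate 3). With the replicate block 20 genes and 0 of the 10 were called, and the block changed no other call on the 10. No sample correlated best with its own number. The median r of pairs stayed between 0.87 and 0.93, with 21 to 28 pairs called, and the median SD between 0.406 and 0.698 in WT and 0.348 and 0.461 in recent KO, and on the scale log2(TPM + 1) the WT median was the lower one (0.406 against 0.422). Leaving out samples for the spread was also chosen after seeing the data. Fosb and Klf2 were too low for the TPM fits, and Klf2 for a minimum mean count of 50. At 14 to 96 reads per sample, Klf2 and Fosb allow only wide intervals.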
